A study of Mus musculus with 8 samples.

Results

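The response of C3H10T1/2 cells to osteogenic induction was compared between a control line and a line carrying an shRNA against *Nap1l2*, gene by gene. For each gene, the change over 7 days in the control line was subtracted from the change over 7 days in the shRNA line. This difference of log2 fold changes is called the interaction here, and it is positive where the gene moved further up, or less far down, in the shRNA line. It was computed for every gene with enough counts, 13470 of the 18605 in the count table, from all 8 libraries. C3H10T1/2 is a mesenchymal stem cell line from C3H mouse embryos. Cells infected with lentivirus for a non-target control (NC, labelled Ctrl) or for the shRNA (KD-Nap1l2) were sequenced at day 0 and after 7 days in osteogenic medium, which the study made with dexamethasone, ascorbic acid and β-glycerol phosphate (NC-7d and KD-Nap1l2-7d), with 2 libraries in each of the 4 groups. The labels do not say whether the 2 libraries of a group came from separate cultures, so p-values measure only the spread between these libraries, which may be technical. The labels also do not say how many separate infections were made. The shRNA therefore cannot be told apart from other differences between the 2 lines. No group was kept for 7 days without osteogenic medium. Induction here therefore means day 7 against day 0, and the medium cannot be told apart from time in culture.

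NAP1L2 belongs to the nucleosome assembly proteins, histone chaperones that place and remove histones on DNA. Osteogenic medium drives mesenchymal cells towards osteoblasts, through transcription factors such as RUNX2 and SP7, and its glucocorticoid also acts on many genes that are not specific to bone. Mesenchymal cells can also respond to interferons, and to signals that activate NF-κB, by raising antigen presentation genes and chemokines.

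The targeted gene was checked first. *Nap1l2* (chromosome X, 103184176 to 103186653, GRCm38.p6) was at 2.96 and 2.80 normalized counts in NC, 16.1 and 4.79 in NC-7d, 1.96 and 7.29 in KD-Nap1l2, and 7.02 and 13.6 in KD-Nap1l2-7d. The groups of the 2 lines overlapped at both times, with no lower level in the shRNA line, and the interaction was -0.64 (SE 1.21). At so few counts a knockdown was not detectable. The shRNA line is therefore named below by its label only. Library totals ran from 17420284 to 19427359 estimated counts. All 15 mesenchymal markers were in the table, and 1 was under 10 normalized counts in every library. This was *Nt5e*, at 0 to 3 counts, and *Thy1* was at 19 to 183 counts. The summed level of the 15 ran from 303000 to 705900 normalized counts per library. Of the 11 leukocyte markers found, 7 were under 10 normalized counts in every library. Among them was *Ptprc*, which encodes the pan-leukocyte protein CD45, at 0 to 4 counts. The other 4 were *Cd14*, a receptor for bacterial lipopolysaccharide, at 132 to 406.5 normalized counts, *Cd68*, a lysosomal protein of macrophages, at 54.8 to 205, the lysozyme gene *Lyz2* at 16.1 to 107 and *Csf1r*, the macrophage growth factor receptor, at 5.01 to 19.6. The KD-Nap1l2 libraries differed from each other in hypoxia genes, and NC-7d replicate 2 was below NC-7d replicate 1 in interferon-stimulated genes, as described beside those genes.

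Many genes differed between day 0 and day 7 in each line. In NC, 1106 genes passed an adjusted p-value of 0.05 in edgeR's quasi-likelihood test, after Benjamini-Hochberg adjustment (8.21% of those tested), 651 higher (4.83%) and 455 lower (3.38%) at day 7. In KD-Nap1l2, 1912 passed (14.2%), 921 higher (6.84%) and 991 lower (7.36%). The 742 genes that passed in both lines, which are 67.1% of the NC calls and 38.8% of the KD-Nap1l2 calls, all moved in the same direction. Over the 11280 genes that averaged 50 or more normalized counts, the 2 responses correlated with Pearson's r = 0.737 and Spearman's rho = 0.669. This is across genes, which are not independent replicates. The 2 responses share no library, and r was 0.589 without NC-7d replicate 1. The counts of calls depended on single libraries. Leaving out NC replicate 1 or 2 gave 122 or 522 calls in NC, leaving out NC-7d replicate 1 gave 581, and leaving out KD-Nap1l2-7d replicate 1 or 2 gave 576 or 572. The KD-Nap1l2 count became 305 or 330 when KD-Nap1l2-7d replicate 1 or 2 was left out, and 1181 when KD-Nap1l2 replicate 2 was. With upper-quartile scaling, the genes that were higher at day 7 made up 524 of 1025 calls in NC and 768 of 1933 in KD-Nap1l2.

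For the interaction itself, the quasi-likelihood test of edgeR, Benjamini-Hochberg adjusted, called 0 of 13470 genes (0%), with a smallest adjusted p-value of 0.109. At an unadjusted p-value under 0.05 there were 948 genes (7.04%), 471 with a positive interaction (3.5%) and 477 with a negative one (3.54%). Leaving out KD-Nap1l2 replicate 1 gave 1867 such genes, leaving out NC-7d replicate 1 gave 1510, and leaving out KD-Nap1l2-7d replicate 1 gave 514. DESeq2's Wald test called 98 of 12947 genes (0.757%), 66 positive and 32 negative, while limma-voom called 0 with 939 genes under the unadjusted threshold. The median interaction of all tested genes was -0.019, and the middle 80% of genes lay between -0.59 and 0.51. The median SE was 0.243 among those better measured genes, which gives a 95% interval of 0.561 to either side. A typical single gene therefore had to differ by about that much on the log2 scale before its interval left 0. In what follows, single genes are described by their values, and a gene is said to pass only where a test is named. Counts within a gene list are to be read beside the shares over all tested genes. For the unadjusted threshold these are 3.5% positive and 3.54% negative. For induction they are 4.83% higher and 3.38% lower in NC, and 6.84% and 7.36% in KD-Nap1l2.

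**Figure D1:**
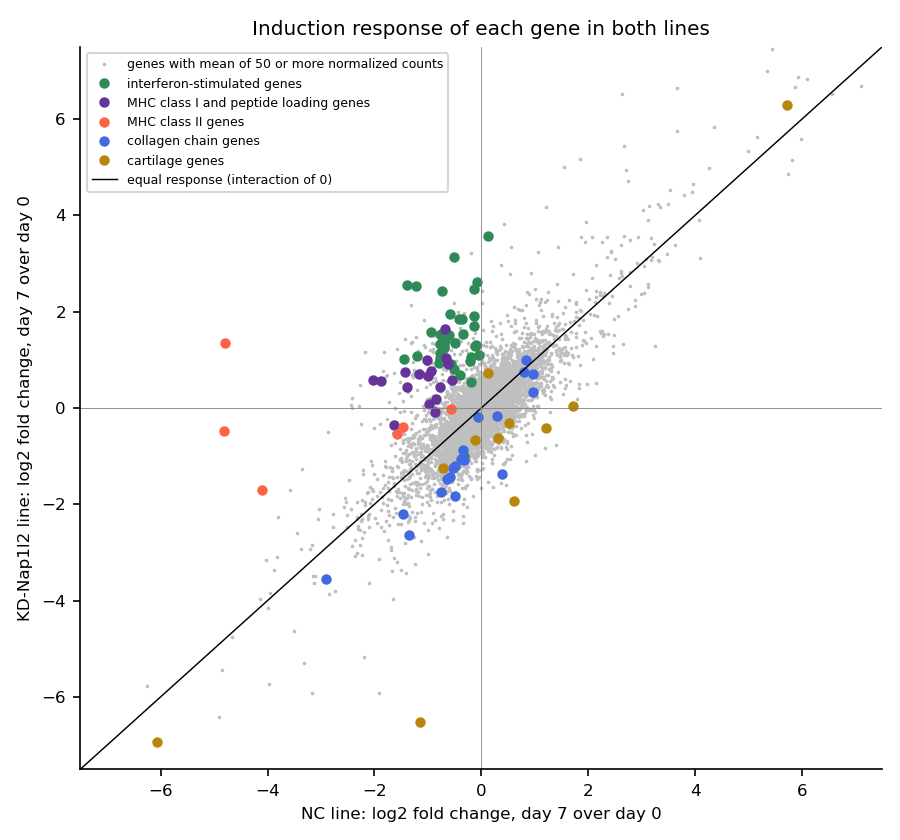
Log2 fold change from day 0 to day 7 in NC (x axis) against KD-Nap1l2 (y axis), 1 grey point per gene averaging 50 or more normalized counts, with 5 gene lists coloured. The vertical distance from the diagonal is the interaction, and 8 genes lie outside the axes. Interferon-stimulated and MHC class I genes sit above the diagonal, with list medians of 2.01 and 1.69, and collagen chain genes sit below it, with a median of -0.67.

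The gene with the smallest p-value was *Ccbe1*, which encodes a secreted protein needed for lymphatic vessel growth. It was at 90.6 and 107 normalized counts in NC and at 359.7 and 348 in NC-7d. In KD-Nap1l2 it was at 5.87 and 7.29, rising to 222 and 258 in KD-Nap1l2-7d. The gene rose in both lines, by 1.84 in NC (adjusted p = 0.0023) and by 5.16 in KD-Nap1l2 (adjusted p = 0.00011, edgeR). Its starting level was far lower in KD-Nap1l2. Its interaction was 3.32 (SE 0.33, adjusted p = 0.109 in edgeR and 5.01e-06 in DESeq2). It also passed in edgeR without the filter on low counts.

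*Ccl2* and *Ccl7*, which encode the monocyte-attracting chemokines CCL2 and CCL7, lie next to each other on chromosome 11, at 82035577 to 82037452 and 82045712 to 82047525 (GRCm38.p6). *Ccl2* was at 3923 and 3550 normalized counts in NC, 3240 and 3342 in NC-7d, 1798 and 1284 in KD-Nap1l2, and 3641 and 3879 in KD-Nap1l2-7d. *Ccl7* was at 2223 and 2273 in NC, 2659 and 2400 in NC-7d, 1229 and 1278 in KD-Nap1l2, and 3292 and 3179 in KD-Nap1l2-7d. For both genes the KD-Nap1l2 libraries at day 0 stood below the other 6. From day 0 to day 7 they rose in KD-Nap1l2, by 1.29 for *Ccl2* (adjusted p = 0.0044) and 1.37 for *Ccl7* (adjusted p = 0.00082). In NC the changes were -0.18 and 0.17 and did not pass (adjusted p = 0.55 and 0.40, edgeR). The interactions were 1.47 (SE 0.24) and 1.20 (SE 0.16), with an adjusted p of 0.343 for each in edgeR, and of 4.01e-05 and 1.04e-05 in DESeq2.

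*Cfb*, the complement factor B gene, had the same shape. It was at 188 and 293.5 normalized counts in NC, 207 and 133 in NC-7d, 60.7 and 48.9 in KD-Nap1l2, and 244 and 256 in KD-Nap1l2-7d. The interaction was 2.69 (SE 0.42). *Angpt2*, which encodes a ligand of the TIE2 receptor of blood vessels, reached a positive interaction of 2.37 (SE 0.37) in another way. It was at 514 and 355 in NC, 56.7 and 62.3 in NC-7d, 66.5 and 57.2 in KD-Nap1l2, and 38.1 and 50.1 in KD-Nap1l2-7d. It fell by 2.86 in NC (adjusted p = 0.0017, edgeR), and in KD-Nap1l2 it was already low at day 0.

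**Figure D2:**
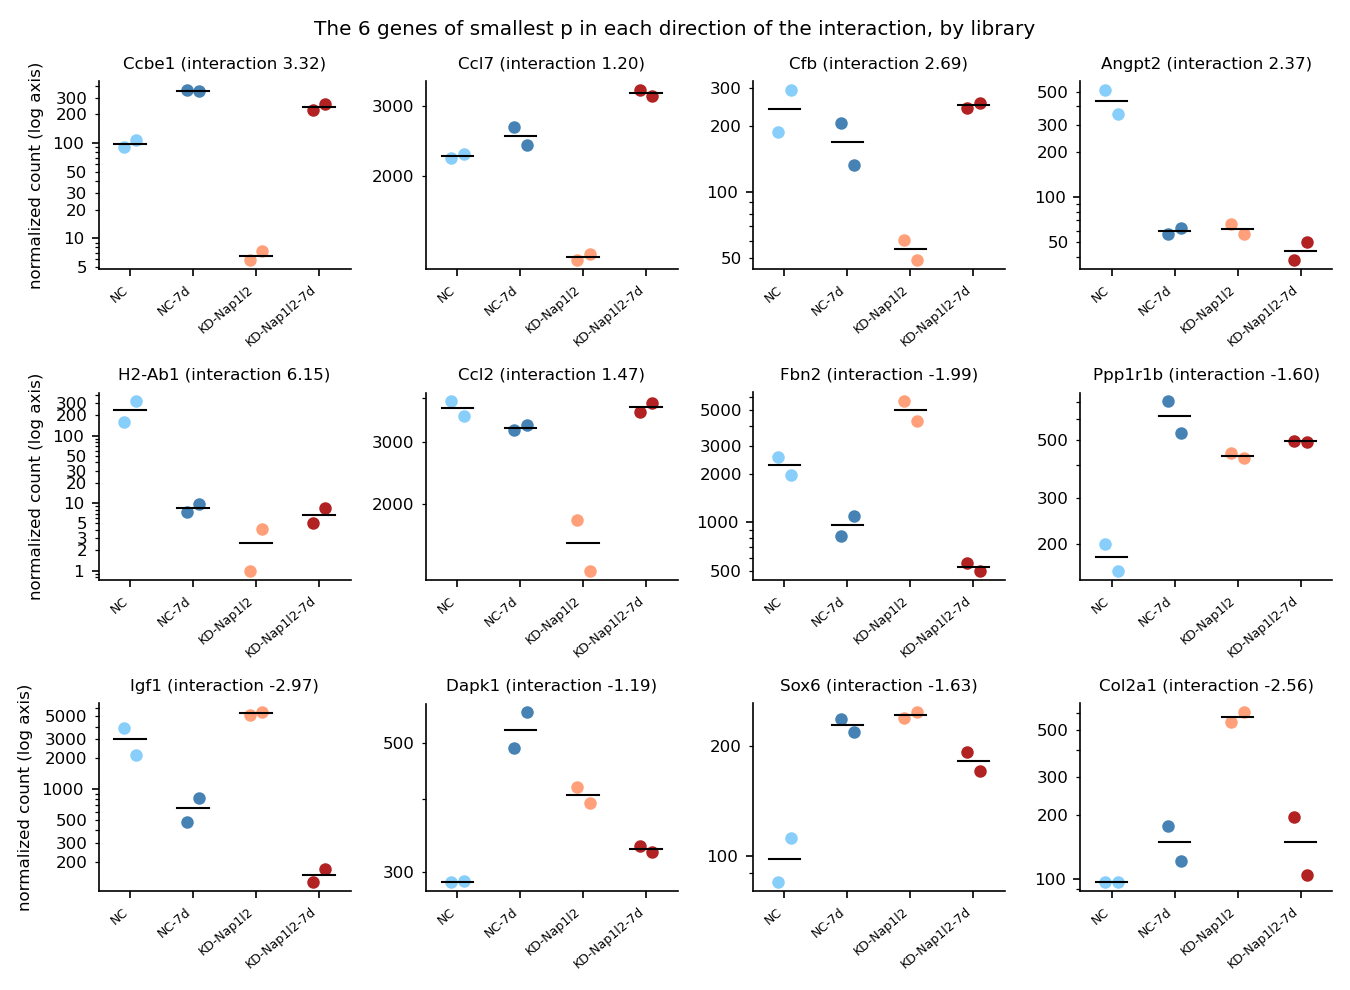
Normalized counts (log axis) of the 6 genes with the smallest p-value in each direction of the interaction, 1 point per library and a line at the mean of each group of 2. In *Ccl2*, *Ccl7*, *Cfb* and *Ccbe1* the KD-Nap1l2 libraries at day 0 are the lowest, and in *Fbn2*, *Igf1* and *Col2a1* they are the highest.

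MHC class II genes had the highest median interaction of the lists examined, 2.78. These molecules present peptides to helper T cells and are made mostly by professional antigen-presenting cells, under the control of CIITA. Of 9 class II genes tested, 9 had an interaction above 0, against 6441 of 13470 over all genes (47.8%), and an unadjusted p-value under 0.05 was reached by 7. In NC, 7 of the 9 passed as lower after induction (edgeR), with a median change of -4.05. In KD-Nap1l2, 1 passed as lower, with a median of -0.39, so most values there were also below 0. *Cd74*, the invariant chain, was at 3614 and 4278 normalized counts in NC, 257 and 201 in NC-7d, 1093 and 588 in KD-Nap1l2, and 221 and 299 in KD-Nap1l2-7d. It fell in both lines, by 4.11 and 1.70 (adjusted p = 0.00094 and 0.012, edgeR), to similar levels at day 7. *H2-Aa*, the alpha chain of I-A, was at 420 and 695 in NC, and between 3.01 and 20.1 in the other 6 libraries, so its interaction of 4.34 (SE 0.84) came from a fall in NC alone. *H2-Ab1*, the beta chain, was at 158 and 325 in NC and under 10 in the other 6 libraries, with 1 and 4 counts in KD-Nap1l2, and its interaction of 6.15 (SE 0.98) rests on those few counts. *Ciita* had 56.1 and 161 in NC and between 5.20 and 34.5 elsewhere. DESeq2 called 4 of the 9. Leaving out NC replicate 2 left 4 under that threshold, and leaving out KD-Nap1l2-7d replicate 2 left 3. The summed level of leukocyte markers ran from 334 to 371 normalized counts in NC, 366 to 558 in NC-7d, 328 to 425 in KD-Nap1l2 and 456 to 611 in KD-Nap1l2-7d. Most of that sum was *Cd14* and *Cd68*, and the part of such cells in the class II values was not tested.

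MHC class I molecules present peptides made in the cell, cut by the immunoproteasome and carried by the TAP transporter, and most nucleated cells make them. Of 17 class I and peptide loading genes, 17 had a positive interaction and 17 an unadjusted p-value under 0.05, 8 were called by DESeq2, and the median was 1.69. Over all genes, 47.8% had a positive interaction and 3.5% a positive one under that threshold. The median change on induction was -0.97 in NC and 0.59 in KD-Nap1l2. *B2m*, the shared light chain, was at 83360 and 100500 normalized counts in NC, 60780 and 35370 in NC-7d, 37820 and 36510 in KD-Nap1l2, and 58110 and 69300 in KD-Nap1l2-7d. *H2-D1*, a classical heavy chain, was at 16110 and 18750 in NC, 10450 and 5175 in NC-7d, 7187 and 6072 in KD-Nap1l2, and 10000 and 11500 in KD-Nap1l2-7d. In both genes the NC libraries at day 0 were the highest, every NC-7d library was below them, and every KD-Nap1l2-7d library was above both KD-Nap1l2 libraries. The interactions were 1.71 (SE 0.36) for *B2m*, 1.86 (SE 0.42) for *H2-D1* and 1.83 (SE 0.41) for *H2-Q4*, a non-classical heavy chain, with adjusted p = 0.408, 0.439 and 0.439 in edgeR and 0.000454, 0.00127 and 0.00135 in DESeq2. Further members were *Psmb9* (2.43, SE 0.57) and *Psmb8* (2.62, SE 0.66) of the immunoproteasome, *Tap1* (1.67, SE 0.56), *H2-K1* (2.18, SE 0.52) and *Nlrc5* (2.34, SE 0.59), a transactivator of class I genes. These 5 and the members below named without being among the 3 smallest p-values of their list were chosen after their values were seen. The H2 heavy chain genes are near-identical copies, so reads may have been split between them and their separate values are uncertain. Whether these genes differ between the C3H cells and the GRCm38.p6 reference was not tested either. The count of 17 was 11 when either NC replicate 2 or KD-Nap1l2-7d replicate 2 was left out.

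Because the class I genes moved together, the bases just upstream of the start site are shown for the 3 members with the smallest p-value. They are the 200 bases before the RefSeq start on GRCm38.p6, on the plus strand, at chr2:122147487-122147686 for *B2m*, chr17:35379417-35379616 for *H2-Q4* and chr17:35262894-35263093 for *H2-D1*. These are the bases of the reference genome, and whether the C3H cells carry the same bases was not tested. Capitals mark the core of the interferon-stimulated response element (ISRE, GAAANNGAAA) or the NF-κB motif, found on either strand, and adjoining capitals in the H2 genes are overlapping NF-κB matches. Only exact matches were marked, so a lack of capitals does not show that a promoter has no ISRE.
B2m: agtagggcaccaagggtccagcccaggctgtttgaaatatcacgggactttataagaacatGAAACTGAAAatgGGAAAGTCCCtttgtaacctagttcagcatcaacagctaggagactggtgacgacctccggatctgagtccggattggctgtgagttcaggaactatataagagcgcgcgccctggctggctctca
H2-Q4: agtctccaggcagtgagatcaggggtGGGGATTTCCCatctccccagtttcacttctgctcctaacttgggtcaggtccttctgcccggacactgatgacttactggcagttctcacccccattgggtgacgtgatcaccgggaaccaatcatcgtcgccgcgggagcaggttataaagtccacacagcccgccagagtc
H2-D1: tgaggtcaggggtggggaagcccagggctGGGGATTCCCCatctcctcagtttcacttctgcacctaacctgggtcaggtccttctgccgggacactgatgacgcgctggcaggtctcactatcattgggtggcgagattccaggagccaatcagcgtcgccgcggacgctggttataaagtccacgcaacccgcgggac

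RefSeq promoters, from 250 bases before to 50 after the start, were found for 10651 of the 13470 tested genes. The ISRE core was in 3.89% of them, in 20 of 31 interferon-stimulated genes (64.5%) and in 4 of 14 class I genes (28.6%). The NF-κB motif was in 6.37% of all, in 5 of 14 class I genes (35.7%) and in 12 of 23 NF-κB target genes (52.2%). The interferon-gamma site GAS (TTCNNNGAA) was in 8.29% of all and in 9 of 31 interferon-stimulated genes (29.0%). Of 5 class II genes with a promoter in the tables, 0 held the ISRE core, 1 held GAS and 1 held the NF-κB motif. Among complement and acute phase genes, 2 of 11 (18.2%) held each of the 3 motifs. The ISRE core was in 3 of 23 NF-κB target genes, 0 of 12 cartilage genes and 0 of 17 collagen chain genes, while the NF-κB motif was in 4 of 12 cartilage genes and 1 of 17 collagen chain genes. These shares describe the letters in the windows only. They count exact matches, so sites that differ from a pattern can be missed.

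Interferon-stimulated genes encode antiviral enzymes, GTPases and the factors that induce them. Of 40 tested, 39 had an interaction above 0, with a median of 2.01 and quartiles of 1.67 and 2.34. At an unadjusted p-value under 0.05 there were 19, and DESeq2 called 0. On induction, 0 passed in NC, with a median change of -0.54, and 3 rose in KD-Nap1l2, with a median of 1.37 (edgeR). Of all genes, 6.84% rose in KD-Nap1l2. *Oas3*, an enzyme that senses double-stranded RNA, was at 268 and 860 normalized counts in NC, 858.5 and 369 in NC-7d, 76.3 and 81.2 in KD-Nap1l2, and 901 and 975 in KD-Nap1l2-7d. It rose by 3.57 in KD-Nap1l2 (adjusted p = 0.010), its change in NC was 0.12 (adjusted p = 0.92), and its interaction was 3.45 (SE 0.78, adjusted p = 0.439, edgeR). *Rsad2*, which encodes the antiviral enzyme viperin, was at 449 and 590 in NC, 359.7 and 41.2 in NC-7d, 59.7 and 45.8 in KD-Nap1l2, and 284 and 340.4 in KD-Nap1l2-7d. *Gbp2*, an interferon-induced GTPase, was at 4524 and 8266 in NC, 3233 and 1486 in NC-7d, 1339 and 783 in KD-Nap1l2, and 1577 and 2697 in KD-Nap1l2-7d. All 3 genes were lowest in the KD-Nap1l2 libraries at day 0, except that *Rsad2* in NC-7d replicate 2 lay below both. The spread between the NC-7d libraries was wide throughout the list, and the number under the unadjusted threshold became 39 when NC-7d replicate 1 was left out, 34 for KD-Nap1l2 replicate 1, 6 for NC replicate 2, and 7 for either KD-Nap1l2 replicate 2 or KD-Nap1l2-7d replicate 2. The list median ran from 1.33 without NC-7d replicate 2 to 3.34 without NC-7d replicate 1.

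NF-κB target genes include chemokines, cytokines and regulators of cell death. Of 33 tested, 27 had an interaction above 0, with a median of 0.43, 11 were under an unadjusted p-value of 0.05, and DESeq2 called 4. In NC, 4 rose and 2 fell on induction, and in KD-Nap1l2 13 rose and 1 fell (edgeR). Over all genes, 4.83% rose in NC and 6.84% in KD-Nap1l2, and 3.5% had a positive interaction under the unadjusted threshold. *Lcn2*, the iron-binding acute phase protein lipocalin 2, was at 2718 and 3120 normalized counts in NC and 20640 and 18620 in NC-7d. In KD-Nap1l2 it was at 1888 and 1212, and in KD-Nap1l2-7d at 46620 and 35220. The day 7 groups did not overlap, nor did the day 0 groups, and the interaction was 1.97 (SE 0.33). *Cxcl1*, a neutrophil chemokine, was at 657 and 601 in NC, 1445 and 1896 in NC-7d, 601 and 691 in KD-Nap1l2, and 4387 and 3332 in KD-Nap1l2-7d. Here the lines were alike at day 0 and stood apart at day 7, with an interaction of 1.17 (SE 0.26). *Il6*, the cytokine gene, was low in every library, at 42.4 and 27.1 in NC, 31.0 and 14.4 in NC-7d, 47.0 and 43.7 in KD-Nap1l2, and 78.2 and 78.3 in KD-Nap1l2-7d. Its interaction was 1.40 (SE 0.56, adjusted p = 0.681, edgeR). With NC replicate 1 left out the count of 11 became 7, with NC replicate 2, NC-7d replicate 2 or KD-Nap1l2-7d replicate 2 left out it became 6, and with KD-Nap1l2-7d replicate 1 left out 4.

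Complement and acute phase genes, a list that holds *Lcn2* as well, had 13 of 19 interactions above 0, 6 positive and 1 negative at the unadjusted threshold, 4 DESeq2 calls, all positive, and a median of 0.71. *Cp*, the copper carrier ceruloplasmin, was at 21270 and 19140 in NC, 43940 and 28180 in NC-7d, 9952 and 7963 in KD-Nap1l2, and 42470 and 37060 in KD-Nap1l2-7d. It was lowest in KD-Nap1l2 at day 0 and overlapped between the lines at day 7. Its interaction was 1.31 (SE 0.33).

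Smaller positive values were found in lists of protein folding and degradation. Lysosome genes had 22 of 26 interactions above 0 and a median of 0.35, with 7 under the unadjusted threshold. *Ctsz*, the protease cathepsin Z (0.60, SE 0.19), *Hexa*, which breaks down gangliosides (0.70, SE 0.24), and the autophagy receptor *Sqstm1* (0.73, SE 0.26) had the smallest p-values. With single libraries left out, that count became 11 (NC-7d replicate 1), 4 (KD-Nap1l2 replicate 1 or KD-Nap1l2-7d replicate 1), 2 (NC replicate 2 or NC-7d replicate 2) and 1 (KD-Nap1l2-7d replicate 2). ER folding genes had 20 of 22 above 0, a median of 0.33 and 5 under the threshold, led by the chaperone *Hspa5* (0.89, SE 0.30), and that count became 3 (NC-7d replicate 1 left out), 2 (NC replicate 1), 1 (NC replicate 2) and 0 (KD-Nap1l2-7d replicate 1). Among Atf4 and amino acid response genes, 24 of 32 were above 0, with a median of 0.25 and 2 under the threshold. Leaving out NC-7d replicate 1 gave a median of 0.55 and 9 genes under it, whereas leaving out NC-7d replicate 2 gave a median of 0.0070, with 18 of 33 above 0 and 0 under it. Omitting KD-Nap1l2-7d replicate 1 gave 0.10, with 0 positive genes under it, and leaving out NC replicate 1 or 2 or KD-Nap1l2 replicate 1 left 1. *Atf4* itself was at 4227 and 3542 normalized counts in NC, 4481 and 3397 in NC-7d, 4552 and 4663 in KD-Nap1l2, and 8937 and 6381 in KD-Nap1l2-7d, so the KD-Nap1l2-7d libraries stood above the other 6. In each of these 3 lists DESeq2 called 0 genes and edgeR called 0.

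**Figure D3:**
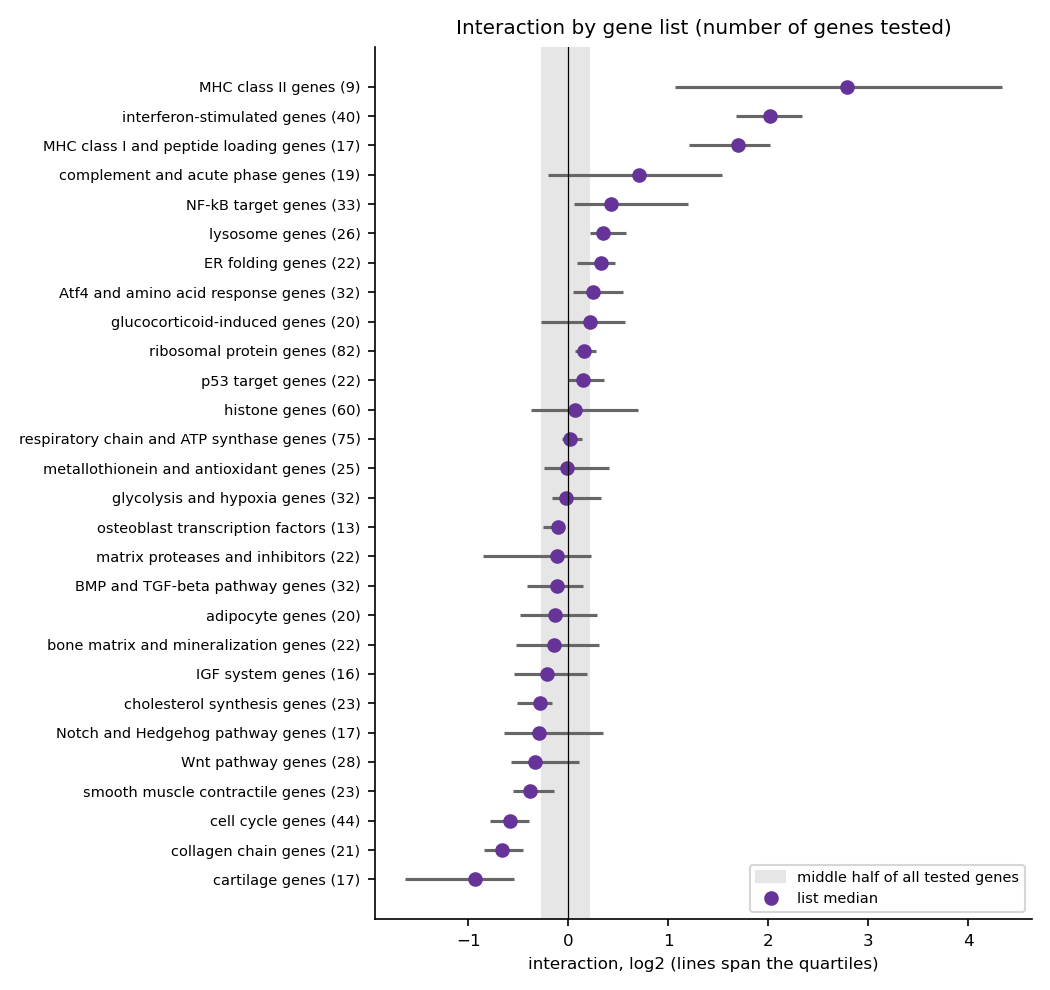
Median interaction (points) and span between the quartiles (lines) for 28 gene lists, with the number of genes tested in brackets, against the same span of all tested genes (grey band, from -0.27 to 0.21). The medians of MHC class II, interferon-stimulated and MHC class I genes lie furthest to the right, and those of cell cycle, collagen chain and cartilage genes furthest to the left. Some other medians also lie outside the band.

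On the negative side, *Fbn2* and *Igf1* fell in both lines and further in KD-Nap1l2. *Fbn2*, which encodes the microfibril protein fibrillin 2, was at 2560 and 1965 normalized counts in NC, 819.9 and 1093 in NC-7d, 5682 and 4272 in KD-Nap1l2, and 562 and 496 in KD-Nap1l2-7d. *Igf1*, an insulin-like growth factor that acts on bone and muscle, was at 3855 and 2145 in NC, 483 and 819.8 in NC-7d, 5166 and 5516 in KD-Nap1l2, and 126 and 170.2 in KD-Nap1l2-7d. In both genes the KD-Nap1l2 libraries were the highest at day 0 and the lowest at day 7. *Igf1* fell by 2.20 in NC (adjusted p = 0.0092) and by 5.17 in KD-Nap1l2 (adjusted p = 0.00057, edgeR). The interactions were -1.99 (SE 0.30) for *Fbn2* and -2.97 (SE 0.47) for *Igf1*, each with an adjusted p of 0.343 in edgeR, and *Igf1* had the smallest adjusted p of all genes in DESeq2, 1.95e-07. Of 16 IGF system genes tested, *Igf1* included, 5 were above 0 and 11 below, with a median of -0.22, which was -0.55 when KD-Nap1l2 replicate 1 was left out and -0.062 when KD-Nap1l2 replicate 2 was. *Igf2*, the fetal growth factor, had an interaction of 1.26 (SE 0.37), from 18070 and 15690 in NC, 4669 and 6211 in NC-7d, 3345 and 4515 in KD-Nap1l2, and 2343 and 3729 in KD-Nap1l2-7d.

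*Ppp1r1b*, an inhibitor of protein phosphatase 1, and *Dapk1*, a kinase linked to cell death, rose on induction in NC, by 1.79 and 0.87 (adjusted p = 0.0023 and 0.010), and had changes of 0.18 and -0.31 in KD-Nap1l2 that did not pass (adjusted p = 0.52 and 0.17, edgeR). *Ppp1r1b* was at 201 and 158 normalized counts in NC, 704 and 533 in NC-7d, 444 and 428 in KD-Nap1l2, and 496 and 492 in KD-Nap1l2-7d. *Dapk1* was at 288 and 289 in NC, 490.3 and 567 in NC-7d, 419.8 and 394 in KD-Nap1l2, and 332 and 325 in KD-Nap1l2-7d. In both genes the NC libraries at day 0 were the lowest and those at day 7 the highest. The interactions were -1.60 (SE 0.25) and -1.19 (SE 0.19).

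Cartilage genes had a median of -0.94, the lowest of the 28 lists plotted, which leave out the cell type markers. Of 17 tested, 14 were below 0, and 8 negative and 1 positive had an unadjusted p-value under 0.05, of which DESeq2 called 3, all negative. *Col2a1*, the main collagen of cartilage, was at 96.5 and 97.2 normalized counts in NC, 178 and 121 in NC-7d, 541 and 606 in KD-Nap1l2, and 194.5 and 104 in KD-Nap1l2-7d. It fell by 1.94 in KD-Nap1l2 (adjusted p = 0.0078), its change in NC was 0.62 (adjusted p = 0.27), and its interaction was -2.56 (SE 0.43, edgeR). *Sox6*, a transcription factor of chondrocytes, was at 84.7 and 112 in NC, 238 and 219.6 in NC-7d, 239.8 and 249 in KD-Nap1l2, and 193.5 and 171 in KD-Nap1l2-7d. *Cnmd*, which encodes chondromodulin, was at 128 and 41.1 in NC, 16.1 and 59.5 in NC-7d, 629 and 329.9 in KD-Nap1l2, and 2.00 and 8.35 in KD-Nap1l2-7d, with an interaction of -5.37 (SE 1.19). All 3 were highest at day 0 in KD-Nap1l2. The chondrocyte master regulator *Sox9* differed less, with an interaction of -0.55 (SE 0.24). *Col11a2* was the positive member, at 0.59 (SE 0.23). With KD-Nap1l2-7d replicate 1 or 2 left out, the count of 8 became 5 or 4.

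Genes of collagen chains, which build fibrils, networks and beaded filaments of the matrix, had 20 of 21 interactions below 0 and a median of -0.67, with 6 under the unadjusted threshold and 2 DESeq2 calls. On induction, 4 fell and 1 rose in NC, and 12 fell and 0 rose in KD-Nap1l2 (edgeR). Over all genes, 3.38% fell in NC and 7.36% in KD-Nap1l2. *Col27a1*, a fibrillar chain of cartilage, was at 1263 and 928 normalized counts in NC, 810.3 and 754 in NC-7d, 1429 and 1427 in KD-Nap1l2, and 372 and 432 in KD-Nap1l2-7d, with an interaction of -1.34 (SE 0.23). *Col6a2*, of the beaded filaments, was at 33740 and 33410 in NC, 21330 and 21950 in NC-7d, 45470 and 56140 in KD-Nap1l2, and 17640 and 18700 in KD-Nap1l2-7d, with an interaction of -0.85 (SE 0.21). Both fell further in KD-Nap1l2, from a higher level to a lower one. *Col5a3*, which joins type I fibrils, had an interaction of -1.30 (SE 0.38). The KD-Nap1l2 libraries differed in several collagens, with *Col5a3* at 4414 and 8637, and the count of 6 became 12 with KD-Nap1l2 replicate 1 left out and 10 with NC-7d replicate 1 left out. It was 4 with NC replicate 2 or KD-Nap1l2-7d replicate 1 left out, and the list median was -0.39 when KD-Nap1l2 replicate 2 was omitted.

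Contractile and adhesion genes of smooth muscle were below 0 in 20 of 23 cases, with a median of -0.39 and 4 under the threshold. That count became 7 (NC-7d replicate 1 left out), 2 (NC-7d replicate 2) and 1 (NC replicate 2 or KD-Nap1l2-7d replicate 1), and 2 positive genes were under the threshold when NC replicate 2 was left out. The median moved to -0.17, with 9 of 23 above 0, when NC-7d replicate 2 was omitted, and to -0.24 for KD-Nap1l2 replicate 1. The adaptor *Sorbs2* was at 87.7 and 112 normalized counts in NC, 751 and 1148 in NC-7d, 512 and 848 in KD-Nap1l2, and 1536 and 1768 in KD-Nap1l2-7d. It rose in both lines and less in KD-Nap1l2, where it started higher, and its interaction was -1.97 (SE 0.41). Among Wnt pathway genes, 19 of 28 were below 0 and 3 were under the threshold, against 7.04% of all genes. They were led by the secreted Wnt modulator *Sfrp2* (-2.75, SE 0.87) and the receptor *Fzd2* (-0.49, SE 0.18). The count of 3 became 5 (NC-7d replicate 1 left out), 1 (NC replicate 1, NC replicate 2 or NC-7d replicate 2) and 0 (KD-Nap1l2-7d replicate 1). The list median of -0.34 was -0.12 when NC-7d replicate 2 was left out, -0.19 for KD-Nap1l2 replicate 1 and -0.20 for KD-Nap1l2-7d replicate 1. For matrix proteases and inhibitors, 14 of 22 were below 0, with 4 negative and 1 positive under the threshold and a median of -0.11, which was -0.21 when KD-Nap1l2 replicate 1 was left out and -0.021 when KD-Nap1l2 replicate 2 was. Those of smallest p-value were the proteases *Adamts12* (-1.17, SE 0.23) and *Adamts5* (-0.79, SE 0.23), which cut matrix proteins, and *Plat*, the tissue plasminogen activator (-1.20, SE 0.25).

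Cell cycle genes were below 0 in 44 of 44 cases, with a median of -0.59, but 1 gene, the mitotic checkpoint kinase gene *Bub1b* (-0.78, SE 0.33), was under the unadjusted threshold. In KD-Nap1l2, 12 fell on induction, and in NC 0 did (edgeR), where the shares over all genes were 7.36% and 3.38%. This list followed a single library. *Cdc20*, an activator of the anaphase-promoting complex, was at 681 and 736 normalized counts in NC, 348 and 771 in NC-7d, 957 and 870.0 in KD-Nap1l2, and 369 and 368 in KD-Nap1l2-7d, so 1 NC-7d library matched KD-Nap1l2-7d and the other matched NC. The list median was -1.05 without NC-7d replicate 1, with 29 genes under the threshold, and -0.012 without NC-7d replicate 2, with 0 genes under it and 20 of 44 above 0. The same 2 libraries also differed in interferon-stimulated genes.

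The genes that define osteoblasts did not stand out. Of 13 osteoblast transcription factors tested, 3 were above 0 and 10 below, with a median of -0.10, and only *Atf4* (0.71, SE 0.29) was under the unadjusted threshold of 0.05. Leaving out KD-Nap1l2 replicate 2 turned the median to 0.052, with 8 of 13 above 0, and leaving out KD-Nap1l2 replicate 1 gave -0.23, with 3 negative genes under the threshold. *Runx2*, the master regulator of bone formation, was at 1547 and 1499 normalized counts in NC, 1174 and 1047 in NC-7d, 1323 and 1669 in KD-Nap1l2, and 976 and 1023 in KD-Nap1l2-7d. It was lower at day 7 in both lines, and its interaction was -0.13, with a 95% interval from -0.59 to 0.33, so a difference in response of the size seen in *Igf1* or *Ccl2* lay outside it. *Sp7*, which acts after RUNX2, and *Alpl*, the alkaline phosphatase of mineralizing cells, had too few counts to be tested. *Sp7* ran from 1.04 to 5.20 normalized counts. *Alpl* was at 5.91 and 6.54 in NC, 5.35 and 3.84 in NC-7d, 2.94 and 0 in KD-Nap1l2, and 6.02 and 10.4 in KD-Nap1l2-7d. Its values were lower at day 7 in NC and higher in KD-Nap1l2, with no overlap in either line. At 10 counts or fewer in every library, this difference was not tested. The count of 0 allows for up to 3 counts.

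Among 22 bone matrix and mineralization genes, 10 were above 0 and 12 below, with a median of -0.15, and 1 in each direction was under the threshold. *Spp1*, the matrix protein osteopontin, was at 30530 and 28050 normalized counts in NC, 97020 and 36980 in NC-7d, 31380 and 28720 in KD-Nap1l2, and 81650 and 78560 in KD-Nap1l2-7d. The NC-7d libraries lay on both sides of KD-Nap1l2-7d, and the interaction was 0.22, with a 95% interval from -0.99 to 1.43. *Bglap*, which encodes osteocalcin, was at 14.8 and 3.74 normalized counts in NC, 3.21 and 9.59 in NC-7d, 13.7 and 0 in KD-Nap1l2, and 13.0 and 22.97 in KD-Nap1l2-7d, with an interaction of 1.84 and an interval from -1.84 to 5.52, and its reads may be split with the copies *Bglap2* and *Bglap3*. *Ifitm5*, a membrane protein of osteoblasts (-2.03, SE 0.73, at 7.02 to 28.1 normalized counts), and the phosphate transporter *Slc20a1* (0.61, SE 0.25) were the 2 under the threshold. Leaving out NC-7d replicate 1 gave 6 positive genes under the threshold, with a list median of 0.11, and leaving out NC-7d replicate 2 gave 5 negative ones, with a median of -0.28. The lowest median, -0.33, came with KD-Nap1l2-7d replicate 1 left out.

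**Figure D4:**
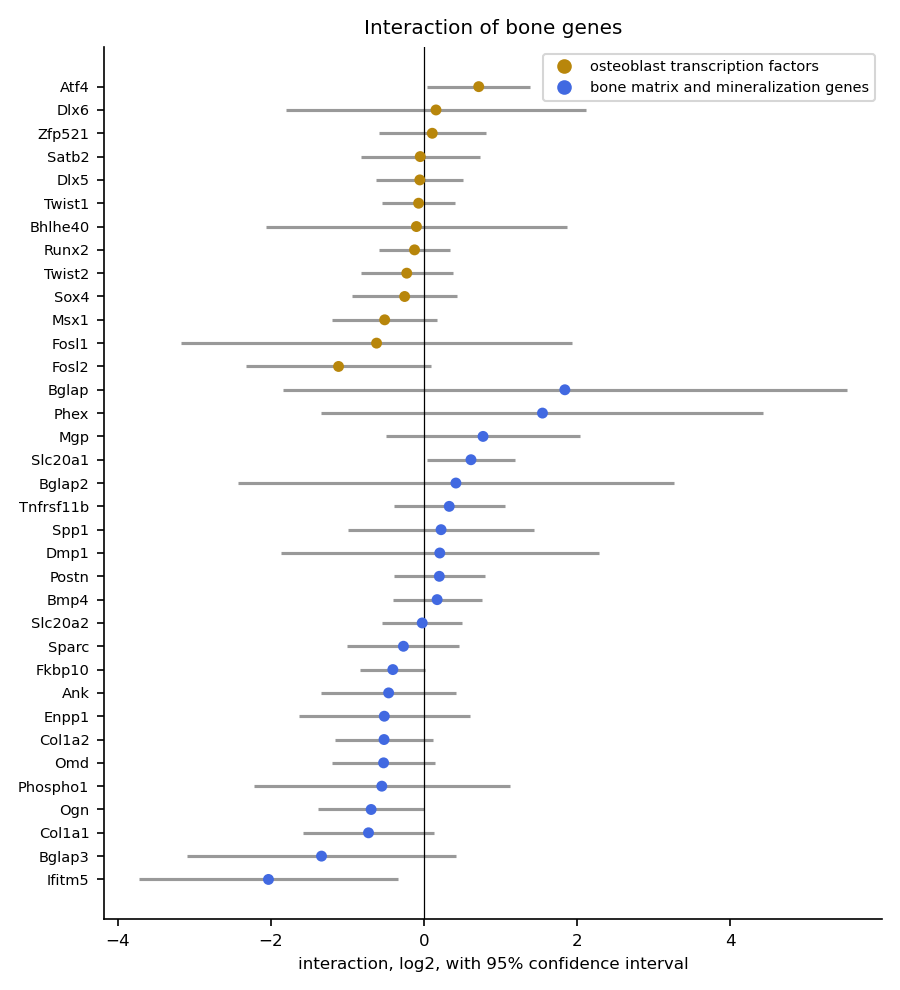
Interaction (points) with its 95% confidence interval (lines) on the log2 scale for 35 osteoblast transcription factors and bone matrix genes. The intervals of 32 of them include 0, and the exceptions are *Atf4*, *Slc20a1* and *Ifitm5*.

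Fat cell genes, the other common fate of these cells, were below 0 in 13 of 20 cases, with a median of -0.14, which was -0.25 when KD-Nap1l2-7d replicate 2 was left out and -0.015 when KD-Nap1l2-7d replicate 1 was. *Lpl*, lipoprotein lipase, was at 378 and 321 normalized counts in NC, 317 and 448 in NC-7d, 699 and 930.4 in KD-Nap1l2, and 190.5 and 371 in KD-Nap1l2-7d, with an interaction of -1.67 (SE 0.45, adjusted p = 0.0409 in DESeq2 and 0.511 in edgeR). *Scd1*, a fatty acid desaturase (-0.98, SE 0.25), and *Cebpa*, a regulator of fat cells (-1.47, SE 0.58), were the others of smallest p-value. *Cdkn1a*, which encodes the cell cycle inhibitor p21, was at 5263 and 4467 in NC, 8086 and 6868 in NC-7d, 7325 and 11380 in KD-Nap1l2, and 12290 and 11020 in KD-Nap1l2-7d. Its interaction was -0.30, with a 95% interval from -1.02 to 0.41. Of 22 p53 target genes, 15 were above 0 and 2 were under the unadjusted threshold, the polo-like kinases *Plk3* (1.07, SE 0.32) and *Plk2* (0.83, SE 0.31). Over all genes, 7.04% were under it. The count of 2 became 4 (NC-7d replicate 1 left out) and 1 (NC replicate 1, NC-7d replicate 2 or KD-Nap1l2-7d replicate 1).

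Other lists had smaller medians. Glucocorticoid-induced genes, a class that dexamethasone acts on, changed by a median of 2.09 in NC and 2.25 in KD-Nap1l2, with 11 and 13 of 20 rising (edgeR). The part of the medium in this was not tested apart from time in culture. Their median interaction was 0.22, with 13 of 20 above 0. That median became -0.022 when KD-Nap1l2 replicate 1 was left out, and 0.62, with 18 of 20 above 0, when KD-Nap1l2 replicate 2 was. Ribosomal protein genes had 75 of 82 interactions above 0, against 47.8% over all genes, with a median of 0.16 and 0 under the unadjusted threshold. Leaving out KD-Nap1l2 replicate 1 gave a median of 0.054 with 55 of 82 above 0, and leaving out KD-Nap1l2 replicate 2 gave 0.29 with 5 genes under the threshold. Respiratory chain genes had 43 of 75 above 0 and a median of 0.020, with 0 under the threshold. In glycolysis and hypoxia genes, which cells raise at low oxygen, the median was -0.022 with 0 of 32 under the threshold, and this value rests on the mean of 2 unlike libraries. *Pdk1*, a kinase that keeps pyruvate from the mitochondria, was at 2536 and 1817 normalized counts in NC, 250.5 and 279 in NC-7d, 649 and 4613 in KD-Nap1l2, and 583.5 and 653 in KD-Nap1l2-7d. The list median was -0.72 without KD-Nap1l2 replicate 1, with 13 negative genes under the threshold, and 1.44 without KD-Nap1l2 replicate 2, with 28 positive ones. The direction for this list therefore cannot be given.

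The interaction is also the change, over induction, in the difference between the lines, so each gene was placed by whether the lines lay further apart at day 0 or at day 7. Of the 471 genes with a positive interaction under the unadjusted threshold, 345 (73.2%) differed more between the lines at day 0, with median differences of -0.86 at day 0 and 0.22 at day 7. Of the 477 with a negative interaction, 302 (63.3%) did, with medians of 0.50 and -0.29. Over all genes tested the share was 56.1%. The interaction holds both differences, so these shares describe the genes and were not tested. The SD of the line difference over the 11280 genes was 0.467 at day 0 and 0.358 at day 7. In edgeR, 11 genes passed between the lines at day 0 (0.0817%) and 0 at day 7 (0%).

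Direction by line was split in the same genes. Among the 471 positive genes, 284 had a lower value at day 7 in NC and a higher one in KD-Nap1l2, 132 were higher in both and 55 lower in both. Of the 477 negative genes, 232 were higher in NC and lower in KD-Nap1l2, 174 were lower in both and 71 higher in both. Over the same 11280 genes, 211 (1.87%) were lower at day 7 in NC and higher in KD-Nap1l2 with no overlap between the libraries of either line, and 194 (1.72%) were the reverse. Without the limit on mean count, 260 of the 13470 tested genes had the former pattern and 220 the latter. Of these 260, class I genes held 8 among 17 and interferon-stimulated genes 5 among 40. Cartilage genes held 4 of the 220 among 17.

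The lists differed in which time carried the difference. In interferon-stimulated genes the median difference between the lines was -1.98 at day 0 and 0.072 at day 7, and in class I genes -1.39 and 0.036. For class II genes it was -3.39 and -0.36, and for complement and acute phase genes -0.57 and 0.069. Collagen chain genes went from 0.51 to -0.23 and cartilage genes from 0.44 to -0.29. NF-κB target genes went the other way, from 0.052 at day 0 to 0.42 at day 7, and Wnt pathway genes went from -0.0023 to -0.41.

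**Figure D5:**
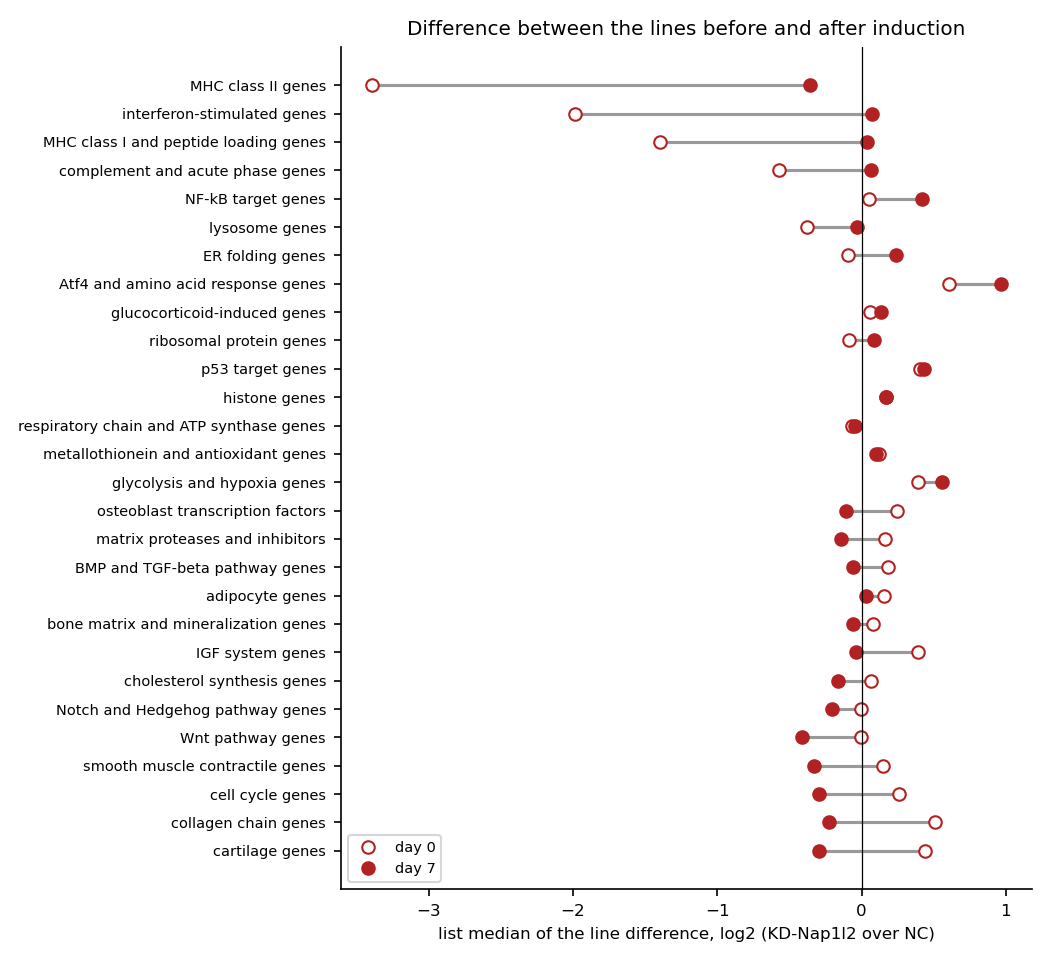
Median log2 difference between the lines, KD-Nap1l2 over NC, at day 0 (open points) and day 7 (filled points) for 28 gene lists, in the order of their median interaction, which is close to the distance between the points. The interferon-stimulated, class I and class II lists start far below 0 and end near it, and 16 of the 28 medians lie nearer 0 at day 7.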

How the data were processed

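The authors deposited an estimated count for each gene in each of 8 libraries, without normalization, and the submitters' processing notes name BWA, Bowtie2, RSEM and GRCm38.p6. The authors also deposited FPKM, which are counts scaled to gene length and library reads, and these were used only in alternatives. Deposited columns of the authors' own comparisons (fold changes, p-values) and transcript tables were not used. Counts were rounded, scaled by TMM and printed as normalized counts, which are comparable between libraries and not between genes.

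Genes kept by filterByExpr were fitted over all 8 libraries with edgeR 4.0.16 in R 4.3.3 (quasi-likelihood test, Benjamini-Hochberg adjusted p under 0.05). The interaction was 1 contrast of the 4 group means. A standard error is the log2 value divided by the square root of F, and intervals are at 95%. With 2 libraries a group, no single value can be tested exactly below 0.05. A library with 0 counts can hold up to 3 counts' worth, for counting error only.

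The comparison, the gene lists and the named genes were chosen with earlier results of these data known. Named were *Nap1l2*, 6 genes per direction of smallest p among those averaging 50 or more normalized counts, 8 genes tied to the study's question, and the 3 genes of smallest p in each list, except 1 gene that is not reported here. Positions and promoters came from RefSeq tables on GRCm38.p6. Alternatives were DESeq2 1.42.0, limma 3.58.1 on voom values and on log2(FPKM + 1) or log2(FPKM + 0.1), RLE and upper-quartile factors, no filter, at least 10 counts in every library, a 2-fold minimum, a replicate block and leaving out each library. The fits were tested on simulated data. Figures were drawn with matplotlib 3.10.9 in Python 3.11.15.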

Additional observations from a re-analysis of the deposited data

Results flagged for a closer look

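For 21 of the named genes that were tested, both libraries at day 7 lay on one side of both libraries at day 0 in NC. They lay on the other side in KD-Nap1l2. Most named genes were chosen for a small interaction p-value, which favours this pattern. In edgeR, 0 of the 21 had a change that passed within both lines. The test of the difference itself is the interaction, and in edgeR's quasi-likelihood test 0 of the 21 passed. With 2 libraries a group, such a pattern was also found in 211 and 194 of the 11280 genes averaging 50 or more normalized counts.

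Lower at day 7 in NC and higher in KD-Nap1l2 were the antigen presentation genes *H2-Ab1* (interaction 6.15), *B2m* (1.71), *H2-D1* (1.86) and *H2-Q4* (1.83), the interferon-stimulated genes *Rsad2* (3.94) and *Gbp2* (2.45), and the chemokine *Ccl2* (1.47). *Ltbp2*, which encodes a latent TGF-beta binding protein of the matrix, had 1.05. *Atf5*, a stress transcription factor, had 0.99. *Herpud1* and *Selenos*, of ER-associated degradation, had 0.67 and 0.67. The cathepsin gene *Ctsz* had 0.60, and the ribosomal protein genes *Rpl30* and *Rps3* had 0.40 and 0.34.

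Higher at day 7 in NC and lower in KD-Nap1l2 were *Col2a1* (-2.56) and *Sox6* (-1.63) of cartilage, *Ifitm5* of bone (-2.03, at 28.1 normalized counts or fewer), *Dapk1* (-1.19), *Plat* (-1.20), *Scd1* (-0.98) and the procollagen protease gene *Bmp1* (-0.60).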

How the results depend on the processing

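The count of interaction calls was 0 as reported and 98 by DESeq2, 1 without the filter on low counts (*Ccbe1*), 0 to 19 when each library was left out, and 0 under every other setting run. The 19 came without NC-7d replicate 1, and 18 of them were positive. The replicate numbers did not pair the libraries, since the deviations of same-numbered libraries correlated at -0.136 to 0.124, and with the replicate block the counts were 0 for the interaction, 961 for NC induction and 1757 for KD-Nap1l2 induction. The NC count ran from 122 to 1490 and the KD-Nap1l2 count from 305 to 2218 when each library was left out, and with a fold change of at least 2 they were 669 and 1039. The correlation of both responses ran from 0.589 to 0.775 when each library was left out. A group reduced to 1 library is assumed to vary like the others. The direction turned, in each case without passing, for 4 genes, whose values with each library left out ran from -1.30 to 0.53 for *Nap1l2* (0.44 without NC-7d replicate 1, 0.53 without KD-Nap1l2 replicate 2), from -0.28 to 0.052 for *Runx2* and from -0.59 to 0.051 for *Cdkn1a* (both highest without KD-Nap1l2 replicate 2), and from -0.31 without NC-7d replicate 2 to 1.08 for *Spp1*. The cause of these shifts was not tested. Depth limits *Nap1l2*, *Sp7*, *Alpl* and *Bglap*.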

Other observations

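The lists not described above had medians between those of the cell cycle and the lysosome genes. Of 32 BMP and TGF-beta pathway genes, 11 had an interaction above 0 and the median was -0.12 (from -0.21 without NC replicate 1 to 0.0071 without NC-7d replicate 2). *Ltbp2* (1.05, SE 0.28), the procollagen protease gene *Bmp1* (-0.60, SE 0.19) and the growth factor *Tgfb3* (-0.65, SE 0.27) were under the unadjusted threshold. Over all genes, 7.04% were under it. Of 17 Notch and Hedgehog pathway genes, 5 were above 0 and the median was -0.29 (-0.079 without KD-Nap1l2 replicate 1). The Hedgehog receptor gene *Ptch1* (-0.89, SE 0.35) and *Notch3* (-0.84, SE 0.36) had negative values and *Notch4* a positive one (1.33, SE 0.55, at 17.7 to 48.1 normalized counts). *Notch3* was at 582 and 543 normalized counts in NC, 883 and 692 in NC-7d, 1145 and 2031 in KD-Nap1l2, and 1310 and 1179 in KD-Nap1l2-7d, so both NC groups lay below both KD-Nap1l2 groups. Cholesterol synthesis genes were below 0 in 19 of 23 cases with a median of -0.28, and 0 were under the threshold. The direction turned without NC-7d replicate 2, where the median was 0.097 and 15 of 23 were above 0, and without NC-7d replicate 1 the median was -0.61 with 4 negative genes under the threshold. Metallothionein and antioxidant genes had a median of -0.012 (from -0.078 without KD-Nap1l2-7d replicate 2 to 0.16 without KD-Nap1l2 replicate 2), and 6 rose in NC and 10 in KD-Nap1l2 (edgeR). Among them *Selenop*, the selenium carrier, was at 11510 and 14610 in NC, 91470 and 89340 in NC-7d, 8063 and 8478 in KD-Nap1l2, and 88120 and 99110 in KD-Nap1l2-7d, which is a large rise in both lines to overlapping levels. Histone genes had a median of 0.068 (from -0.20 without NC replicate 1 to 0.39 without NC-7d replicate 1), with 3 genes in each direction under the threshold, of which *H2afx*, a variant histone of DNA repair, had -0.96 (SE 0.29) and the linker histone gene *H1fx* -0.59 (SE 0.23).

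Most markers of other cell types were low. Of 9 endothelial, 8 epithelial, 8 skeletal muscle and 8 neural markers, 5, 5, 4 and 4 were under 10 normalized counts in every library. The endothelial sum was 71.7 in NC-7d replicate 1 and 367 in NC-7d replicate 2, against 134 and 294.5 in KD-Nap1l2-7d, and *Vwf*, the von Willebrand factor gene, was at 15 and 345 counts in the NC-7d libraries. The epithelial sum was 120 and 34.5 in the same libraries, with the keratin gene *Krt5* at 54 and 0 counts. The skeletal muscle sum was 169 and 115 there. Among its members *Acta1* was at 55 and 13 counts and *Ckm* at 16 and 0, while *Des* went the other way, at 67 and 106. The source of these counts in NC-7d replicate 1 was not tested.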
